A study of Mus musculus with 6 samples.

Results

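The interferon response and MHC class I genes described here are 9 genes chosen by symbol: Stat2, Irf7, Irf9, Isg15, Ifit1, Ifit3, Bst2, B2m and H2-D1. All 9 were found among the 53110 genes of the deposited table, and 6 of them reached a mean of 10 normalized counts, as did 16266 genes in all. A normalized count is the number of reads on a gene divided by a size factor that corrects for the depth of the sample. The genes were measured by RNA-seq in primary cortical neural stem cells (NSCs) of the mouse, grown attached to a coated surface at 21% O2. The WT group has 3 samples of wild type cells and the Setd5 +/- group has 3 samples of cells in which CRISPR-Cas9 had inactivated one copy of Setd5, a gene linked to chromatin regulation and to intellectual disability. No other treatment differed between the groups according to the labels. The medium contained bFGF and EGF and no interferon is named in it.

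The 3 samples of a genotype proved to be parts of 1 library. Their read pairs differed by no more than sampling noise, with a chi-square per degree of freedom of 0.961 to 0.986 in the 6 comparisons within a genotype and of 34.8 to 35.0 in the 9 comparisons between genotypes. Each genotype was therefore counted as 1 sample. The mutant columns all carry the name of a single clone, A3. The column names also give each genotype its own sequencing lane. Genotype, clone, culture, library and lane cannot be told apart, the differences below have no replicate check, and no p-value is given for them. The intervals are 95% counting intervals and cover counting error only. A gene is called past 2-fold where its log2 difference, Setd5 +/- minus WT on the log2(normalized count + 1) scale, was at least 1 in size. Each WT part held 9995980 to 10004948 reads on genes and each mutant part 7143309 to 7146147. Setd5 itself (ENSMUSG00000034269) had 2498, 2749 and 2780 normalized counts in WT and 2151, 1990 and 2055 in Setd5 +/-, a log2 difference of -0.37 (-0.44 to -0.31).

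Interferons are secreted signals of antiviral defence. When a type I interferon binds its receptor, the kinases JAK1 and TYK2 phosphorylate STAT proteins, among them STAT2, and a complex that holds STAT2 and IRF9 binds a DNA element named ISRE in the promoters of interferon-stimulated genes. Some of these genes encode antiviral effectors, some feed back on the pathway, and some make the MHC class I complex that shows peptides to T cells. Neurons are known for low class I levels when no interferon is present.

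Promoters are shown because the ISRE is the element through which interferon acts on genes of this kind. The ISRE was searched as GAAA, any 2 bases and GAAA again, on both strands, in RefSeq windows from 250 bases before to 50 bases after the start of each gene (build GRCm38.p6). A match was present in 3.44% of all 32851 windows, in 46.2% of the 93 windows of a list of interferon-stimulated genes, and in 6 of the 10 windows of the 9 members. Isg15 had 3 overlapping matches, Bst2 had 2 overlapping matches, Ifit1 and Ifit3 had 2 separate ones each, and Stat2 and B2m had 1 each. No match was found in the windows of Irf7, H2-D1 and Irf9, but the search misses elements that depart from this pattern. The element of the interferon gamma response, named GAS and searched as TTC, any 3 bases and GAA, which reads the same on both strands, was present in 8.3% of all windows and, among the members, in Bst2 alone, where it overlaps the first ISRE match. The stretch just before the start of the 6 genes with a match is given 5′ to 3′ on the strand of the gene, with the ISRE matches in capitals.
Isg15, chr4:156200819-156200968, minus strand: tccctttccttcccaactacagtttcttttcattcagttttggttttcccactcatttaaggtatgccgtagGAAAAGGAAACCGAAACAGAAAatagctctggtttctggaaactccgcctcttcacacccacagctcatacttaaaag
Ifit1, chr19:34640739-34640888, plus strand: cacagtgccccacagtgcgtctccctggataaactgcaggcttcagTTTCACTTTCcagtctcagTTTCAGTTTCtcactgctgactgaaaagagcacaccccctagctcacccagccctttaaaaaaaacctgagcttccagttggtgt
Ifit3, chr19:34583363-34583528, plus strand: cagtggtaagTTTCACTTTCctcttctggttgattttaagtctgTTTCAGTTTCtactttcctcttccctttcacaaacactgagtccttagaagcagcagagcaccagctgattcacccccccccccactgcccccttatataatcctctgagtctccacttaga
Bst2, chr8:71537473-71537622, minus strand: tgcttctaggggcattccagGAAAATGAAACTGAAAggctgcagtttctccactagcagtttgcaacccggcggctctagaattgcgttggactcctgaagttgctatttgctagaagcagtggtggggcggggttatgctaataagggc
B2m, chr2:122147537-122147686, plus strand: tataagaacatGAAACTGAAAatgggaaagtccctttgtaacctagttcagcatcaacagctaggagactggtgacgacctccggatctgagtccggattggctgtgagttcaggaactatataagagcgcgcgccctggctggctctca
Stat2, chr10:128270266-128270497, plus strand: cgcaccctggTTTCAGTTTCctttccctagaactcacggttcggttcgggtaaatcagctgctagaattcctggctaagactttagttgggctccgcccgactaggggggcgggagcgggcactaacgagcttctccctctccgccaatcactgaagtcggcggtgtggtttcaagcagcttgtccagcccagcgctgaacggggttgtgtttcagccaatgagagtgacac

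Of the 6 members above a mean of 10 normalized counts, Irf7 alone was past 2-fold, and it was higher in Setd5 +/- NSCs. Irf7 reached that mean only through its mutant level, and over genes with a mean of at least 10 in WT, 5 members were left and 0 of them were past 2-fold. Among all tested genes 16.4% were past 2-fold, 10.3% higher and 6.14% lower. The counting interval excluded 0 for 5 of the 6 members (Stat2, Irf7, Irf9, B2m and H2-D1), all on the higher side. It did so for 65.4% of all tested genes, 32.6% on the higher and 32.8% on the lower side. In the same 5 members every mutant value was above every WT value, which held for 32.4% of all tested genes, while the reverse held for 32.9%. The median of the log2 differences of the 6 was 0.47 beside -0.02 over all tested genes. Isg15, Ifit1 and Ifit3 stayed below the limit for testing.

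The members span the whole range of expression. Per kilobase of exon, B2m had 1251 normalized counts in WT, a level above 98.3% of the tested genes. H2-D1 followed with 173 and Irf9 with 90.9 normalized counts per kilobase. Stat2 had 45.3 and Bst2 22 on this scale. The 4 remaining genes were at the bottom, with 5.84 for Isg15, 2.29 for Ifit1, 1.17 for Irf7 and 0.632 for Ifit3. Only 4 to 22 WT reads stand behind each of these 4, so their order among themselves is not resolved.

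**Figure D1:**
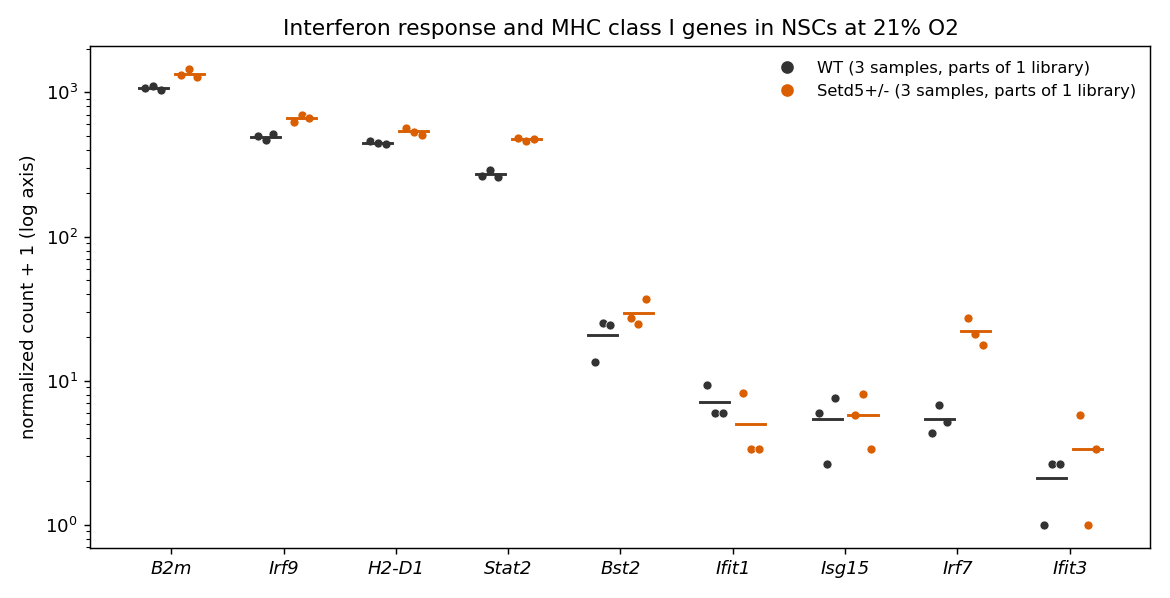
Normalized counts plus 1 (log axis) of the 9 genes in each sample, with the WT samples in black, the Setd5 +/- samples in orange and a horizontal bar at each mean. The black and orange points are separate for B2m, Irf9, H2-D1, Stat2 and Irf7 and overlap for Bst2, Ifit1, Isg15 and Ifit3.

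Stat2 and Irf9 encode parts of the complex that binds the ISRE, and both were higher in the mutant library. Stat2 (ENSMUSG00000040033, chromosome 10 from 128270559 to 128292849) encodes the STAT protein specific to interferon signalling. It was at 261, 289 and 256 normalized counts in WT, against 482, 456 and 473 in the mutant. Every mutant value lay above every WT value, with means of 269 and 470.2, and the log2 difference was 0.81 (0.64 to 0.98), a size that 22.9% of all tested genes reached in either direction. Irf9 (ENSMUSG00000002325, chromosome 14 from 55603571 to 55610030) encodes the subunit that recognizes the ISRE. Its values were 494, 463 and 512 in WT and 622, 693 and 662 in Setd5 +/-. The groups were again separate, and the log2 difference was 0.43 (0.29 to 0.56), which 47.3% of tested genes reached. Irf9 shares 123 of its 5386 exon bases with Rnf31 on the same strand, and Rnf31 had 385 normalized counts in WT and 354 in the mutant.

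Irf7 (ENSMUSG00000025498, chromosome 7 from 141262706 to 141266481) encodes the factor that amplifies interferon production once a response has begun. It had 3.32, 5.79 and 4.14 normalized counts in WT and 26.2, 20.2 and 16.7 in Setd5 +/-. All mutant values were above all WT values, but the levels were low in both, with 16 WT reads and 53 mutant reads. The log2 difference was 2.03 (1.07 to 2.98) and the ratio of the means was 4.76, with an exact 95% counting interval of 2.15 to 12.4. A difference of this size was reached by 4.71% of tested genes. Irf7 shares 45 of its 3776 exon bases with Phrf1 on the opposite strand, which went the other way, from 863 to 623 normalized counts.

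The 3 members best known as antiviral effectors were close to absent in both libraries. Isg15 (ENSMUSG00000035692, chromosome 4 from 156199424 to 156200818) encodes a ubiquitin-like protein that is attached to other proteins. It had 4.98, 1.65 and 6.63 normalized counts in WT and 4.77, 7.15 and 2.38 in Setd5 +/-. These values overlap, and the ratio of the means was 1.08 (exact interval 0.309 to 3.55). Ifit1 (ENSMUSG00000034459, chromosome 19 from 34640871 to 34650009) encodes a protein that binds foreign RNA. Its values were 8.29, 4.96 and 4.97 in WT and 7.15, 2.38 and 2.38 in Setd5 +/-, again overlapping, with a ratio of 0.654 (0.178 to 2.04). Its neighbour Ifit3 (ENSMUSG00000074896, chromosome 19 from 34583531 to 34588731) had 0, 1.65 and 1.66 in WT and 4.77, 0 and 2.38 in Setd5 +/-. These are 4 and 6 reads in all, at or under the floor of 3 read pairs per library, so no fold is given. At this depth no difference was detectable for Isg15, Ifit1 or Ifit3, and the intervals of Isg15 and Ifit1 leave room for changes of 2-fold in both directions. The promoters of all 3 hold 2 or more ISRE matches in the sequences above. Reads of Ifit3 and its near copy Ifit3b may have been split between both.

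Bst2 (ENSMUSG00000046718, chromosome 8 from 71534255 to 71537456) encodes tetherin, a membrane protein that holds budding viruses at the cell surface. It had 12.4, 24 and 23.2 normalized counts in WT and 26.2, 23.8 and 35.7 in Setd5 +/-. One mutant value lay within the WT range, and the log2 difference of 0.50 had an interval from -0.13 to 1.13.

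Both members of the class I complex itself were abundant and slightly higher in Setd5 +/- NSCs. B2m (ENSMUSG00000060802, chromosome 2 from 122147686 to 122153083) encodes the light chain common to class I molecules. It had 1071, 1114 and 1042 normalized counts in WT and 1312, 1458 and 1281 in Setd5 +/-, with no overlap. The log2 difference was 0.33 (0.24 to 0.42), a size that 57.5% of tested genes reached. H2-D1 (ENSMUSG00000073411, chromosome 17 from 35262730 to 35267499) encodes a classical heavy chain. Its values were 456, 445 and 435 in WT and 569, 532 and 505 in Setd5 +/-. The groups were separate, with a log2 difference of 0.26 (0.12 to 0.41), reached by 64.3% of tested genes. H2-D1 resembles other heavy chain genes closely, and shared reads make the values of single heavy chains uncertain.

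**Figure D2:**
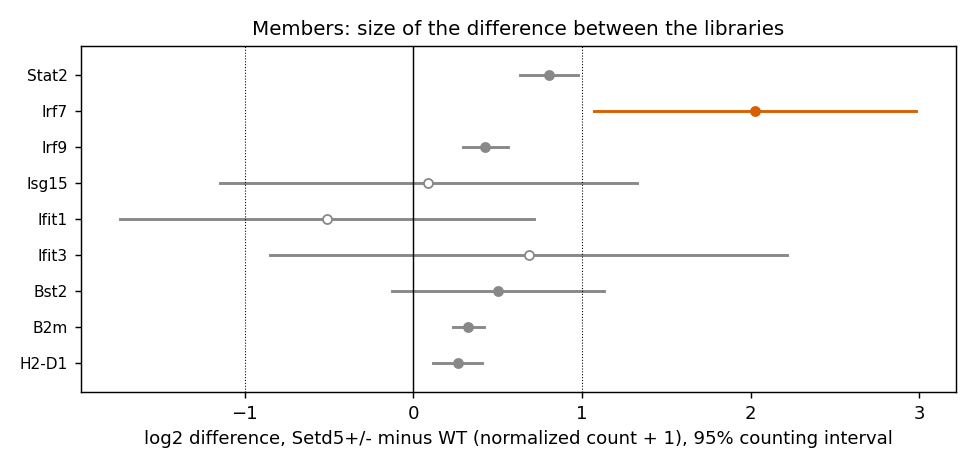
Log2 difference (Setd5 +/- minus WT, normalized count + 1) of the 9 genes, with 95% counting intervals as lines, dotted lines at 2-fold, filled points for the 6 tested genes and open points for the 3 below a mean of 10 normalized counts. Irf7, in orange, is the point beyond the upper dotted line, at 2.03, and the intervals of Isg15, Ifit1, Ifit3 and Bst2 cross 0.

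The interferon genes themselves were almost without reads. Of 21 interferon ligand genes listed in the table, 19 had no read in either library, and the summed level of the list was at most 0.829 normalized counts in a WT sample and 2.38 in a mutant sample. Most of the receptors, by contrast, were measured well. The exception was Ifnlr1, for a chain of the interferon lambda receptor, with 4 WT reads and 22 mutant reads, below the limit for testing. Of 13 genes for receptor chains, JAK kinases and their STAT and IRF partners, 12 were tested, with 1 higher past 2-fold and 0 lower, and a median log2 difference of 0.50. A single gene of 12 is close to the 10.3% of all tested genes that were higher past 2-fold. The counting interval was above 0 for 10 of them and below 0 for 1, beside 32.6% and 32.8% of all tested genes. The members Stat2 and Irf9 are on this list and among the 10, so these counts and the median reuse their values. The gene past 2-fold was Il10rb, which encodes a chain of the receptors for interferon lambda and interleukin 10, with 53.8 normalized counts in WT and 147 in the mutant (log2 difference 1.44, 1.09 to 1.78). Il10rb lies on chromosome 16 beside Ifnar2, Ifnar1 and Ifngr2, and the 4 genes take up 193 kilobases from 91372783 to 91565623. All 4 were higher in the mutant library, Ifnar1 by 0.53 (0.42 to 0.63), Ifnar2 by 0.63 (0.42 to 0.83) and Ifngr2 by 0.73 (0.55 to 0.90) on the log2 scale, while the median of the 480 tested genes of chromosome 16 was -0.10.

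Among the kinases, Jak2 had 761 normalized counts in WT and 1289 in the mutant, Tyk2 had 256 and 325, and Jak1 had 1113 and 815. Jak1, which serves both the type I and the interferon gamma receptor, was thus the one with an interval below 0 (log2 difference -0.45, -0.56 to -0.34). On chromosome 1 the 1044 tested genes had a median log2 difference of 0.53. The medians of the other 18 autosomes lay between -0.15 and 0.02, and all 9 members are on those chromosomes. Of the 9 IRF genes, 6 were tested, with a median of 0.04. Irf7 was the only one past 2-fold, and its mutant level alone brought it among those tested. Irf3, the constitutive factor closest to Irf7, had 461 normalized counts in WT and 425 in the mutant (log2 difference -0.11, -0.27 to 0.04).

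Interferon-stimulated genes differed in both directions. The list held 90 genes, 7 of them members, and 49 were tested. Past 2-fold were 18 higher (36.7% of those tested, beside 10.3% of all genes) and 5 lower (10.2%, beside 6.14%), with a median log2 difference of 0.71. Without the members 45 were tested, 17 higher and 5 lower. A gene can reach a mean of 10 only through a high mutant level, so the count was repeated, after the data had been seen, over genes with a mean of at least 10 in WT. There 15 of 47 were higher past 2-fold, beside 7.97% of all genes under that filter, and 6 were lower, beside 7.15%. Of the 90 genes, 25 had at most 10 reads over both libraries. The ISRE in the promoter window divided the list as follows, with no test. Of 19 tested with a match, 7 were higher and 4 lower past 2-fold, and of 21 tested whose windows held none, 8 were higher and 1 lower. The other 9 tested had no promoter window, and of those 3 were higher and 0 lower.

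**Figure D3:**
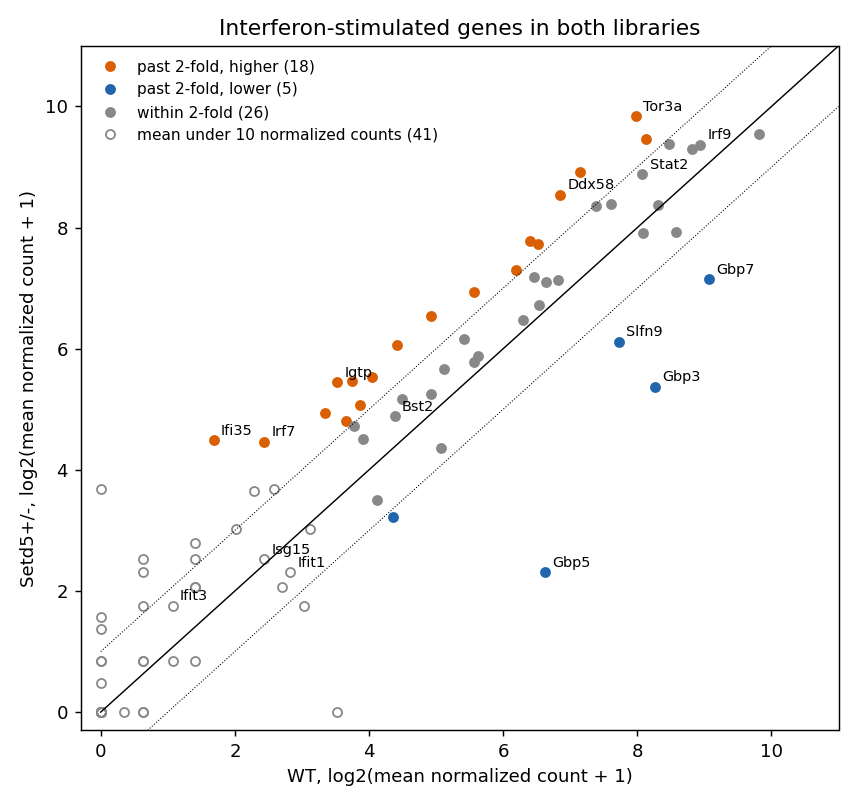
Mean level of 90 interferon-stimulated genes in WT (x axis) and Setd5 +/- (y axis), both as log2(mean normalized count + 1), with a solid line of equal levels and dotted lines at 2-fold. The 18 orange genes lie above the upper dotted line and the 5 blue genes below the lower one, while Isg15, Ifit1 and Ifit3 sit among the 41 open points under a mean of 10 normalized counts.

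Among the tested genes of the list, the largest differences upward were those of Ifi35, Irf7, Igtp and Tor3a, of which Ifi35 and Irf7 were tested only because of their mutant level. Ifi35 had 2.21 normalized counts in WT and 21.4 in the mutant, from 8 and 54 reads (ratio 9.71, exact interval 3.38 to 38.2). Igtp, a GTPase gene of defence against intracellular parasites, had 10.5 and 42.5 (log2 difference 1.92, 1.23 to 2.61). Its span overlaps that of Irgm2 on the same strand, and their shared exon bases were not counted. Tor3a had 251 and 918 (1.86, 1.71 to 2.02) and lies on chromosome 1. Rsad2 and Cmpk2, neighbours on chromosome 12 that act together against viral replication, had log2 differences of 1.62 (1.17 to 2.07) and 1.37 (0.99 to 1.74). Slfn8, below the limit for testing, had no read in WT and 11.9 normalized counts in Setd5 +/-, at least 7.19-fold higher when WT is set at a floor of 3 read pairs per library.

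Among the tested genes of the list, the largest differences downward were those of Gbp5, Gbp3, Gbp7 and Slfn9. The Gbp genes encode guanylate-binding proteins that attack the membranes around intracellular pathogens. Gbp5 had 98.0 normalized counts in WT and 3.97 in the mutant (log2 difference -4.32, -5.33 to -3.30). Gbp3 had 308 and 40.5 (-2.90, -3.29 to -2.50), and Gbp7 had 535 and 141 (-1.92, -2.15 to -1.69). These 3 lie next to each other on chromosome 3, in a stretch of 144 kilobases that also holds Gbp2. Gbp2 went the other way, from 13.5 to 32.6 normalized counts (1.21, 0.54 to 1.88). The promoter windows of Gbp3, Gbp5 and Gbp7 each hold an ISRE match, as those of Isg15, Ifit1 and Ifit3 do. Those of Gbp5 and Gbp7 also hold GAS matches, which those of Gbp3, Isg15, Ifit1 and Ifit3 do not. Reads of these similar genes may have been shared among them. Slfn9 had 211 normalized counts in WT and 68.3 in the mutant, and it resembles Slfn8 closely enough for reads to be shared. Cxcl10, a chemokine gene below the limit for testing, had 10.5 normalized counts in WT and no read in Setd5 +/-, at least 4.40-fold lower by the same floor.

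The sensors of foreign nucleic acid upstream of interferon, listed with their adaptors and kinases, also split. Of the 18 found, 13 were tested, with 3 higher and 1 lower past 2-fold, beside 10.3% and 6.14% of all tested genes, and a median of 0.02. Ddx58, which encodes the RNA sensor RIG-I, had 114 normalized counts in WT and 372 in the mutant (log2 difference 1.70, 1.47 to 1.93). Ifih1, for the RNA sensor MDA5, had 11.6 and 27.0. Ddx58 and Ifih1 are also on the list of interferon-stimulated genes and were counted as higher there too. The DNA sensing pair went in opposite directions. Mb21d1, which encodes the DNA sensor cGAS, had 58.5 normalized counts in WT and 5.56 in the mutant (-3.18, -4.11 to -2.25), whereas Tmem173, which encodes its adaptor STING, had 137 and 391 (1.51, 1.29 to 1.72). The enzymes of ISG15 attachment and removal differed by less than 2-fold in all 5 genes tested. Their intervals were all above 0, as were those of 32.6% of all tested genes, with 0.95 (0.23 to 1.66) for Usp18, the protease that removes ISG15, and 0.74 (0.31 to 1.17) for the ligase gene Herc6.

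Class I genes outside the classical group differed widely. Of 25 heavy chain and class I-like genes listed with B2m, 11 were tested, with 4 higher past 2-fold and 0 lower, beside 10.3% and 6.14% of all tested genes, and a median of 0.33. H2-K1, the classical partner of H2-D1, had 530.1 normalized counts in WT and 647 in the mutant (log2 difference 0.29, 0.15 to 0.42), beside 0.26 for H2-D1. The 4 past 2-fold were Mr1, Hfe, H2-T23 and Fcgrt. Mr1, which presents vitamin metabolites, had 88.3 and 896 normalized counts (3.33, 3.10 to 3.56) and lies on chromosome 1. Hfe, a regulator of iron uptake, had 54.7 and 203 (1.88, 1.55 to 2.20). H2-T23, the nonclassical chain that presents leader peptides, had 16.3 and 54.8 (1.69, 1.11 to 2.27), and Fcgrt, the neonatal Fc receptor, had 34.0 and 104 (1.59, 1.17 to 2.01). The counting interval was above 0 for 8 of the 11 and below 0 for 0, beside 32.6% and 32.8% of all tested genes. Without B2m and H2-D1 the median of the 9 tested was 0.74. The intervals of 3 genes included 0. The log2 difference was 0.04 for Cd1d1 (-0.10 to 0.18), 0.02 for H2-T10 (-0.25 to 0.30) and -0.68 for H2-M5 (-1.44 to 0.09). H2-Q10 had 14.6 and 3.18 normalized counts (-1.90, -3.08 to -0.73) and was below the limit for testing because of its low mutant level.

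Peptide processing and loading genes were all measured, and 2 of 18 were higher past 2-fold and 0 lower, with a median of 0.15. The share of 11.1% is close to the 10.3% of all tested genes. Tap2, one chain of the peptide transporter, had 125 normalized counts in WT and 288 in the mutant (1.2, 0.97 to 1.43), and Tap1, the other chain, had 156 and 268 (0.78, 0.56 to 1.00). Tapbpl, a peptide editor, had 32.0 and 68.3 (1.07, 0.61 to 1.53). The immunoproteasome genes differed among themselves, with 22.1 and 42.5 for Psmb8, 27.1 and 31.0 for Psmb9, and 178 and 107 for Psmb10. Tap1, Tap2, Psmb8 and Psmb9 are neighbours on chromosome 17, within 34.3 kilobases. The chaperones Canx and Calr had opposite differences, with 5098 normalized counts in WT and 8022 in the mutant for Canx and 5208 and 2611 for Calr. Calr was at the edge of 2-fold (-1.0, -1.05 to -0.94). Nlrc5, the main activator of class I transcription, was at 8.56 and 11.5 normalized counts (0.39, -0.53 to 1.31).

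**Figure D4:**
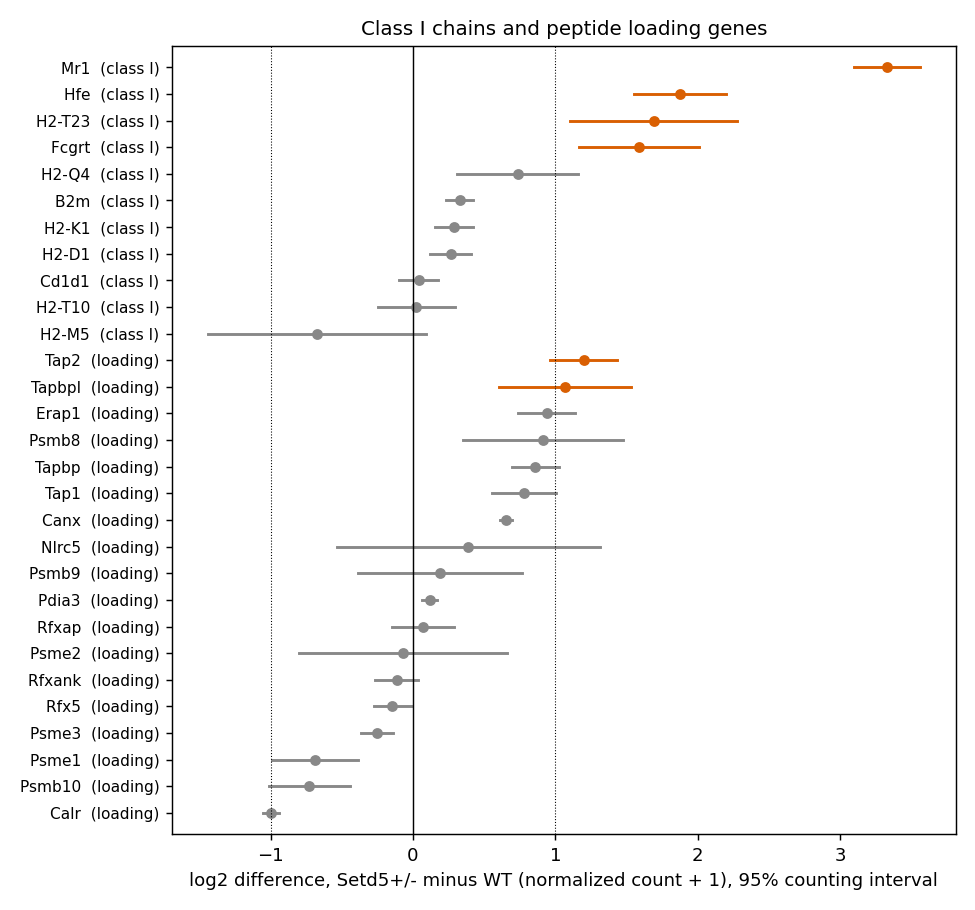
Log2 difference (Setd5 +/- minus WT, normalized count + 1) of the tested class I genes and of the peptide loading genes, with 95% counting intervals and dotted lines at 2-fold. Mr1, Hfe, H2-T23, Fcgrt, Tap2 and Tapbpl lie beyond the upper dotted line in orange, and B2m, H2-K1 and H2-D1 are close together between 0.26 and 0.33.

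Markers of other cells were checked because immune cells carry many of these transcripts. Of 15 microglia and macrophage markers, 8 had no read in either library, among them Cx3cr1, Ptprc, Tyrobp, Trem2 and C1qa. The summed level of the list was 120 to 161 normalized counts in WT samples and 70.3 to 92.9 in Setd5 +/- samples, most of it from Csf1r (98.0 and 53.6) and Cd68 (35.3 and 15.9). Aif1 and Fcer1g had few reads and were higher in the mutant, with 3 and 11 reads for Aif1 and 5 and 14 for Fcer1g. Of 9 lymphocyte markers, 7 had at most 10 reads over both libraries. All 12 neural stem cell markers were measured in both libraries, but their levels differed. Past 2-fold were 1 higher and 3 lower, beside 10.3% and 6.14% of all tested genes. The counting interval was above 0 for 4 and below 0 for 7. Their summed level was 78441 to 78560 normalized counts in WT samples and 62795 to 63695 in Setd5 +/- samples. Fabp7 had 36015 and 11490 normalized counts, and Notch1 had 2576 and 7859. Markers of other cells of the brain differed too. Their counts past 2-fold stand beside 10.3% higher and 6.14% lower among all tested genes. The summed level of 6 astrocyte markers was 5422 to 5550 normalized counts in WT and 2422 to 2661 in the mutant, most of it from Slc1a2 (4678 and 1225). Of the 5 tested, 3 were higher past 2-fold (Gfap, Aqp4 and S100b) and 2 lower (Slc1a2 and Aldh1l1), with a median log2 difference of 1.12. Of 6 oligodendrocyte markers the sums were 1576 to 1699 and 1864 to 1971, most of it from Cnp (1126 and 1685). Of the 4 tested, 2 were lower past 2-fold (Sox10 and Mbp) and 0 higher, with a median of -0.80. The sums of 6 neuron markers were 498 to 524 and 242 to 274, and 2 of the 4 tested were lower past 2-fold. The sums of 8 mesenchymal markers were 235 to 285 and 1299 to 1366, nearly all of it Thy1 (243 and 1333), and 6 of the 8 had at most 10 reads. In bulk samples fewer cells of a type and less RNA per cell cannot be told apart, and the part of such differences in the values of the members was not tested.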

How the data were processed

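RNA-seq libraries were made with a TruSeq RNA kit from total RNA and sequenced from both ends. The authors trimmed reads with Trimmomatic, aligned them to mm10 with Bowtie2, which does not split reads across introns, and deposited counts per gene divided by DESeq2 size factors. The counting program and its use of strand are not given in the sources used here. The columns of the authors' own comparison (fold changes, p-values) were not used. Decimal points lost in the deposited values were restored by requiring whole numbers of reads (tolerance 0.001 reads); for 52438 of 52438 genes with values the deposited mean was then met, having itself settled a point in 1116.

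Log2 differences used genotype means plus a pseudocount of 1. Both reads of a pair were counted, so the variance of a count was taken as 1.94 times its mean in the counting intervals. With the parts of a genotype counted as 1 sample, the test planned for separate samples, limma 3.58.1 in R 4.3.3, compares only the reads of 2 libraries and is given as an alternative. Exact intervals of ratios used read pairs. Alternatives were other pseudocounts, scalings, filters and folds, and leaving out each sample.

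The members and gene lists were chosen with earlier results of these data known. Named are Setd5, the members, and in each list up to 4 genes past 2-fold in each direction. Rsad2, Cmpk2, Gbp2, Usp18, Herc6, Psmb8 to Psmb10 and other genes outside this rule were chosen after their values were seen. Positions of genes are from GENCODE M21 (GRCm38, also called mm10) and promoter sequences are from RefSeq. 1 gene of the lists, counted with its list, is not reported here by name.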

Additional observations from a re-analysis of the deposited data

How the results depend on the processing

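With each alternative pseudocount, scaling or left-out sample, the log2 differences of Setd5 and the 9 members stayed inside their counting intervals. Leaving out a sample only removes part of the reads of the same library and is no replicate check. Those of Irf7 lay between 1.47 and 2.22 and those of Stat2 between 0.77 and 0.86. The low members varied most, Isg15 from -0.24 to 0.42, Ifit1 from -1.06 (without Setd5 +/- replicate 1) to -0.26, Ifit3 from 0.06 to 1.12 (without Setd5 +/- replicate 2), and Bst2 from 0.27 (without WT replicate 1) to 0.65. The alternative scalings shifted the median of all genes by -0.04 to 0.03. Other rules moved the counts. At a fold of 1.5 the higher members were 2, the higher and lower genes overall 3201 and 2521, the lower interferon-stimulated genes 8, the lower class I genes 1, and the higher and lower loading genes 7 and 3. With a counting interval that excludes 0 as the rule, 5 members were higher, and 5304 genes were higher and 5330 lower. With limma (Benjamini-Hochberg adjusted p under 0.05), which compares the reads of the libraries, 5 members were higher, and 4935 genes were higher and 5028 lower. With the replicate number as a block the counts were 5, 4934 and 5012. The numbers share nothing but the number, since same-numbered samples had correlated deviations of -0.00705 to 0.0049. With genes of a mean of at least 1 kept, 2764 genes were higher and 1789 lower past 2-fold, and with no filter 3141 and 2400. Several loading genes, Calr and Tapbpl among them, lie near 2-fold. The higher ones numbered 1 with a pseudocount of 5, and the lower ones 1 with upper quartile or total scaling. Leaving out each sample in turn gave 1 to 3 higher loading genes (1 without WT replicate 2, 3 without WT replicate 1) and 0 to 1 lower (1 without WT replicate 1, WT replicate 2 or Setd5 +/- replicate 3). 2 alternatives were chosen after seeing the data. With the filter set on the WT mean, 0 members were higher past 2-fold, 1 class I gene was lower past 2-fold (H2-Q10), and without chromosome 1 the interferon-stimulated genes past 2-fold were 17 higher and 5 lower.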

Other observations

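MHC class II genes were near the limit of detection. Of 11 listed, 6 had no read in either library and 3 were tested. Past 2-fold were 1 higher and 0 lower, beside 10.3% and 6.14% of all tested genes. The higher one was H2-Ab1, which was tested only because of its mutant level. H2-Ab1 had 6.63 normalized counts in WT and 14.3 in the mutant, from 24 and 36 reads, and an exact interval of the ratio of 0.983 to 4.91. Ciita, the master regulator of class II genes, was at 10.2 and 10.3 normalized counts.

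Enzymes that clear the cell's own nucleic acids were all tested. Of 8 genes 1 was lower past 2-fold and 0 higher, beside 6.14% and 10.3% of all tested genes. Their median log2 difference was -0.18. Dnase1 had 45.0 normalized counts in WT and 20.3 in the mutant (-1.11, -1.72 to -0.51). Of the 3 genes of RNase H2, which removes ribonucleotides from DNA, Rnaseh2b had 253 and 155 normalized counts (-0.71, -0.94 to -0.47) and Rnaseh2c had 309 and 202 (-0.61, -0.82 to -0.40). Among genes that dampen interferon signalling 6 of 8 were tested, with a median of -0.04. Past 2-fold were 0 of them, beside 16.4% of all tested genes.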
